A study of Mus musculus with 12 samples.

Results

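The 6 genes described here belong to neurotrophin signalling: the neurotrophin ligands Bdnf and Ntf3, the Trk receptors Ntrk2 and Ntrk3, the shared receptor Ngfr and the sorting receptor Sort1. They were chosen by name, as the rows of the deposited expression table that carry these 6 symbols, and make up 6 of its 51912 genes. The libraries were made from neurons of the cortex of C57BL/6J mouse embryos at E17.5, grown as primary cultures and treated on the day of plating. The 4 groups, with 3 libraries each, were cultures given 1 µg/mL erinacine S for 16 h, cultures given the solvent DMSO for 16 h, cultures given 1 µg/mL erinacine S for 48 h, and cultures given DMSO for 48 h. Erinacine S is made by the mushroom Hericium erinaceus, and the title of the series concerns neuronal regeneration and neurosteroids. The labels number the repeats of a group without saying whether they came from separate litters, dishes or days, so the spread that p-values measure may be technical.

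Neurotrophins are secreted as precursors that are cut to mature dimers. Mature BDNF acts through the receptor tyrosine kinase TrkB and neurotrophin 3 mainly through TrkC, whereas the uncut precursors bind p75 together with sortilin. In cortical neurons Bdnf is a classical activity-dependent gene, and TrkB signalling feeds survival, dendrite growth and synapse maturation.

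Values are TPM, in which each library is scaled to the same total and lengths are taken into account, so that levels of different genes can be compared. The read depth behind them is unknown. Differences are given as log2 fold changes of TPM + 1 with their standard errors, from a limma fit over the 15623 genes with a mean of at least 1 TPM, and "adjusted p" is the Benjamini-Hochberg value over all of these genes, with a threshold of 0.05. All 6 genes passed the filter on low values. The scale understates the change of low genes, which matters most for Bdnf and Ngfr.

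The libraries had the genes of the labelled cell type, and other cells besides. All 14 cortical neuron markers were detected, with a summed level of 5783 to 6313 TPM in erinacine S and 5489 to 6370 TPM in DMSO at 16 h, and 7019 to 7270 TPM in erinacine S and 6930 to 7287 TPM in DMSO at 48 h. Between 15219 and 15789 genes reached 1 TPM per library. The library of erinacine S 48 h replicate 1 stood apart from the other libraries at 48 h: its summed astrocyte markers were 136 TPM, against 613 and 644 TPM in the other 2 erinacine S libraries and 500 to 588 TPM in DMSO. Its summed inhibitory neuron markers were 1770 TPM, against 795 and 798 TPM in the other 2 and 956 to 1269 TPM in DMSO. The sum does not stand for each marker of that list. Over the 3 erinacine S 48 h libraries Dlx2 ranged from 79.4 to 86.3 TPM and Dlx5 from 57.6 to 65.0 TPM. Gad1 ranged from 74.4 to 150 TPM and Slc32a1 from 50.9 to 111 TPM. Gad2 ranged from 37.2 to 60.7 TPM and Dlx1 from 111 to 157 TPM. The list also holds Lhx6 and Sst, and Sst stands as well in the list of BDNF-responsive genes read below. The sum is therefore no measure of the number of inhibitory neurons. The 48 h differences of the 6 members between erinacine S and DMSO are also given without erinacine S 48 h replicate 1.

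At the level of the system, erinacine S left no member past the threshold at either time, and 1 member differed strongly between 16 h and 48 h. The lowest p at 48 h was that of Bdnf, which had lower TPM in all 3 erinacine S libraries than in any DMSO library. Ntrk2, by contrast, was more than doubled at 48 h relative to 16 h in both arms. Ntf3, Ntrk3, Ngfr and Sort1 passed the threshold in none of the 5 comparisons.

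Bdnf encodes the ligand of TrkB. Its gene lies at chr2:109674700-109727007 on the plus strand (GRCm38, identifier ENSMUSG00000048482), and the GENCODE M21 annotation gives it 11 transcripts from 9 start sites, with coding lengths of 249 to 289 codons. The deposited value is the sum over the gene and does not say which start was used. An antisense model, Gm45346, overlaps it at 0 to 0.703 TPM, and since the strand setting of the counting is not given, reads of the pair may not be fully separated.

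Because the Bdnf starts are the regulated element of this gene, 3 of the 7 windows that RefSeq provides for them on GRCm38.p6 are shown, each of 300 bases around a start and printed from 5′ to 3′ on the plus strand. They are the 3 windows that hold any of the letter patterns searched on both strands: CGTCA (the core of the cyclic AMP response element, bound by CREB), TGANTCA (the AP-1 site, bound by Fos and Jun proteins) and TCGTG (bound by NPAS4 dimers). Matches are in capitals and the remaining bases in lower case. The Ntrk2 window is shown beside them as the start of the receptor for the same ligand, and holds no match.
Bdnf start window at chr2:109674450-109674749: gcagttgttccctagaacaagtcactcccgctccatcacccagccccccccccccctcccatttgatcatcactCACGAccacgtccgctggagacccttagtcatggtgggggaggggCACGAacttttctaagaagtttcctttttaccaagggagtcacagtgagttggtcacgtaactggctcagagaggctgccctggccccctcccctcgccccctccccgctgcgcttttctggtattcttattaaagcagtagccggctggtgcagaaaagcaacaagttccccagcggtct
Bdnf start window at chr2:109676782-109677081: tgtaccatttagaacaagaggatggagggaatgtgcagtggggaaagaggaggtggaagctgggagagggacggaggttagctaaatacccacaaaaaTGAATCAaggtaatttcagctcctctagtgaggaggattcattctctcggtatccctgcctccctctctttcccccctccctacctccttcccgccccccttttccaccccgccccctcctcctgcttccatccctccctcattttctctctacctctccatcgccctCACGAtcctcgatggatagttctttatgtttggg
Bdnf start window at chr2:109692186-109692485: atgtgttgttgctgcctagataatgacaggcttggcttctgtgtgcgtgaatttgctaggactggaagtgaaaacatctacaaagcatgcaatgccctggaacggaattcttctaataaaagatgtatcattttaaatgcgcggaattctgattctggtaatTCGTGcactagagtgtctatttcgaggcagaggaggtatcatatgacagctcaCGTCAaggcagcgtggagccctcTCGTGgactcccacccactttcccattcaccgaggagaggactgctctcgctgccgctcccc
Ntrk2 start window at chr13:58806319-58806618: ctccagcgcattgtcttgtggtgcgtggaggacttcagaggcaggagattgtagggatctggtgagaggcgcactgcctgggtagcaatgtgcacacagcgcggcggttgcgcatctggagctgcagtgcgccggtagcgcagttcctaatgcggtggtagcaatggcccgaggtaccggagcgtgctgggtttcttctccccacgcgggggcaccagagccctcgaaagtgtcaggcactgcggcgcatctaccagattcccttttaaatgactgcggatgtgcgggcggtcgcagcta
The first Bdnf window holds TCGTG at 2 places, and the second holds TGANTCA and TCGTG once each. The TGANTCA match reads TGAATCA, so it lacks the C or G of the AP-1 site. The third window holds CGTCA once and TCGTG at 2 places. The other 4 Bdnf windows, the 2 windows of Ntf3 and the window of Ngfr hold none of these patterns. Of 32851 mouse windows of the same length, 20.8% hold CGTCA, 7.81% hold TGANTCA and 16% hold TCGTG, so such matches are common. A match describes the letters only and is no evidence of binding.

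At 16 h Bdnf stood at 2.39, 2.07 and 2.61 TPM in erinacine S replicates 1, 2 and 3, against 4.35, 2.29 and 2.84 TPM in DMSO. The ranges overlap, although erinacine S was lower than the DMSO library of the same number in 3 of 3 pairs, by 0.220 to 1.96 TPM. The fitted difference was -0.28 ± 0.21 on the log2 scale (adjusted p = 1, limma). At 48 h Bdnf stood at 2.54, 1.44 and 1.43 TPM in erinacine S, against 3.96, 4.34 and 5.86 TPM in DMSO. The groups do not overlap, and the highest erinacine S value belongs to replicate 1, the library that stands apart.

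The 48 h means were 1.80 ± 0.637 TPM in erinacine S and 4.72 ± 1.00 TPM in DMSO (SD, n = 3 each), a ratio of 0.382. On the log2 scale the difference was -1.04 ± 0.21, with a 95% interval of -1.49 to -0.59. The p before adjustment was 0.000309, the 46th smallest of 15623, and the adjusted p of 0.105 (limma) misses the threshold. Without erinacine S 48 h replicate 1 the difference was -1.22 and the adjusted p was 0.0199, which passes. Bdnf was not alone in this, as Sorcs2, for 1, also passed only without that library (adjusted p = 0.0173, limma). The shares over all genes given below are those of the fit with all 12 libraries. Fits that leave out each of the 12 libraries in turn gave differences of -1.22 to -0.90 and adjusted p from 0.0199 to 0.396. The sign was the same in every fit run, while the call depended on the library set and on the weights given to libraries.

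The shares over all genes give the scale for these counts. At 48 h, 0 of the 6 members passed the adjusted threshold, against 0.134% of all genes tested (0.0192% higher and 0.115% lower in erinacine S). Libraries that do not overlap were seen for 2 of the 6 members, against 19.3% of all genes: Ntrk3 above DMSO, as for 10.5% of all genes, and Bdnf below it, as for 8.74%. A p under 0.05 before adjustment was seen for 1 of 6, against 8.96%. At 16 h, 0 of 6 members passed, against 0% of all genes, and 0 of 6 had an unadjusted p under 0.05 by limma, against 1.29% (201 genes). No member had separated groups at 16 h, against 4.19% of all genes (2.62% higher and 1.56% lower in erinacine S).

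Whether the effect on Bdnf differed between the times was tested directly. The difference of the erinacine S effect, 48 h minus 16 h, was -0.76 ± 0.29 on the log2 scale, with a 95% interval of -1.39 to -0.12 and an adjusted p of 1 (limma). It was -0.93 without erinacine S 48 h replicate 1 (adjusted p = 0.788, limma). In the full fit 0 of 6 members passed, against 0% of all genes. Before adjustment 1 of 6 had a p under 0.05, against 2.77%. The time differences had opposite signs in the 2 arms. In erinacine S the 48 h level of Bdnf differed from the 16 h level by -0.28 ± 0.21 (adjusted p = 0.328, limma; -0.46 and 0.12 without erinacine S 48 h replicate 1), and in DMSO by 0.47 ± 0.21 (adjusted p = 0.0971, limma). Neither time difference passed the threshold in the fit reported, but that in DMSO was 0.67 with an adjusted p of 0.0317 without DMSO 16 h replicate 1, whose 4.35 TPM was the highest Bdnf value at 16 h.

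**Figure D1:**
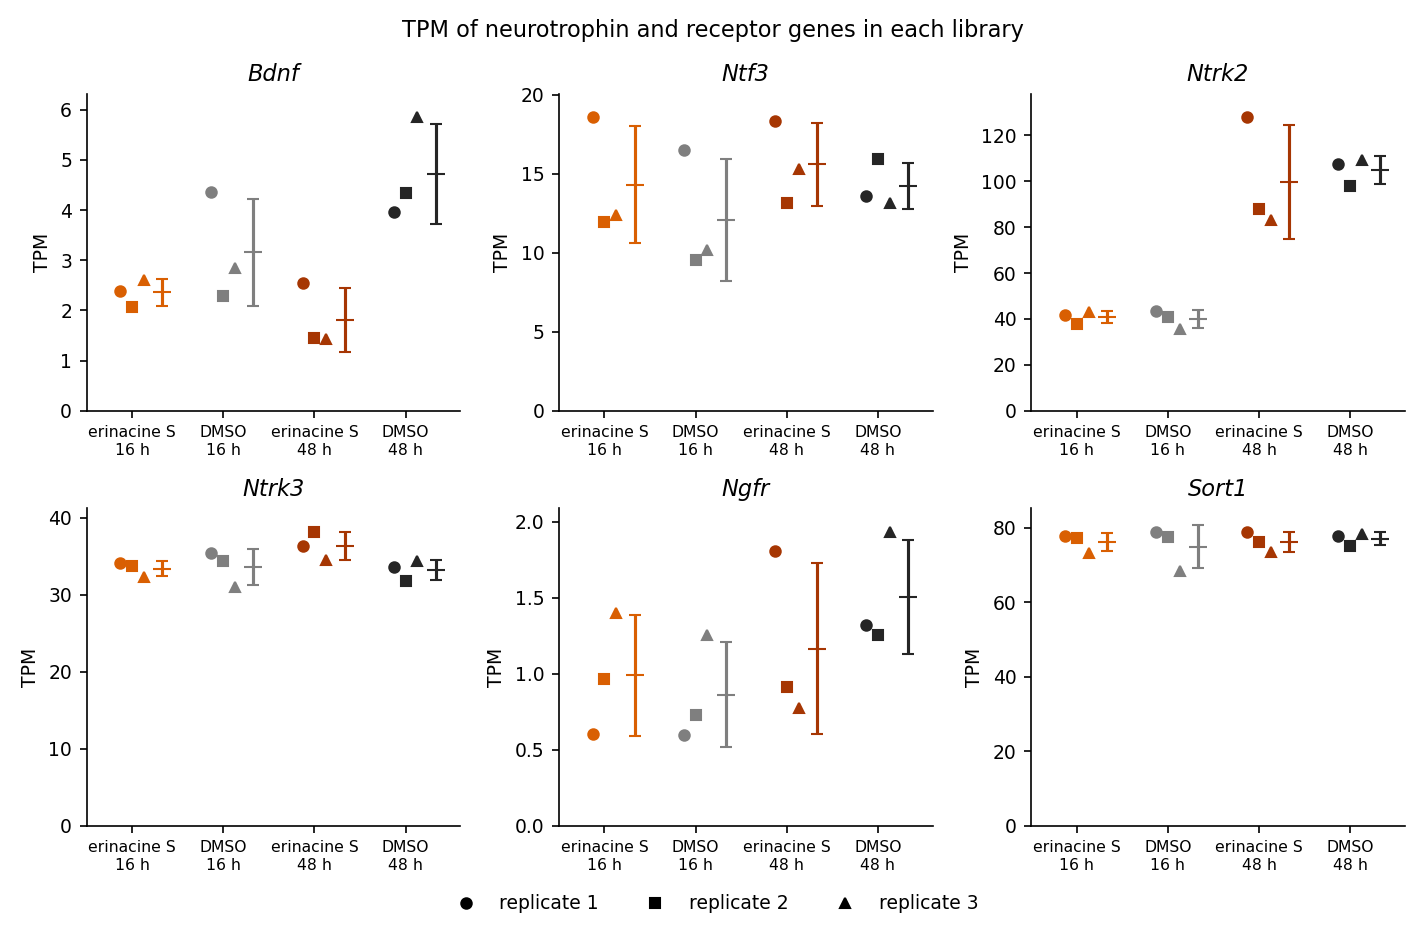
TPM (vertical axis, linear) of the 6 genes in each library of the 4 groups, with the group mean and its SD. Bdnf is lower in the 3 erinacine S libraries than in the 3 DMSO libraries at 48 h, and Ntrk2 is higher at 48 h than at 16 h in both arms.

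Ntf3 encodes neurotrophin 3, the main ligand of TrkC, and lies at chr6:126101412-126166910 on the minus strand. At 16 h it stood at 18.6, 11.96 and 12.4 TPM in erinacine S, against 16.5, 9.54 and 10.2 TPM in DMSO. Replicate 1 was the highest library in both arms, and erinacine S exceeded the DMSO library of the same number in 3 of 3 pairs, by 2.095, 2.42 and 2.197 TPM. The pooled difference was 0.24 ± 0.21, and with the replicate number as a block within each time it was 0.24 ± 0.13, with an adjusted p of 1 in both fits (limma). At 48 h Ntf3 stood at 18.3, 13.1 and 15.3 TPM in erinacine S, against 13.6, 15.9 and 13.2 TPM in DMSO, with a difference of 0.12 ± 0.21 (adjusted p = 0.902, limma). The 48 h ranges overlap, and without erinacine S 48 h replicate 1 the difference was 0.00.

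Ntf3 was thus more abundant than Bdnf in every library. The share of Bdnf in the sum of both ligands was 11.4% to 17.46% in erinacine S and 19.4% to 21.8% in DMSO at 16 h, and 8.56% to 12.2% in erinacine S and 21.4% to 30.8% in DMSO at 48 h. This ratio was looked at after its values were seen. The mean log2 ratio of Bdnf to Ntf3 at 48 h was -3.15 ± 0.284 in erinacine S and -1.61 ± 0.382 in DMSO (SD, n = 3 each). An exact two-sided permutation test gave p = 0.1, the smallest that 3 libraries against 3 allow. As the groups do not overlap, it could give no other value and adds nothing to their separation. At 16 h the log2 ratio was -2.58 ± 0.361 in erinacine S and -1.94 ± 0.110 in DMSO (SD, n = 3 each). The groups are again separated, so the exact permutation p of 0.1 was fixed by that. Neither Bdnf nor Ntf3 passed the threshold at 16 h.

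Ntf5, the gene of a further TrkB ligand, was at 0 to 0.102 TPM over the 12 libraries and did not enter the fit.

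Ntrk2 encodes TrkB and lies at chr13:58806596-59133970 on the plus strand, by the deposited table. GENCODE M21, which gives the same identifier other coordinates, annotates 10 transcripts. The coding ones run from 466 to 821 codons, and the shorter products are known to include receptors that lack the kinase domain. A gene sum does not separate these forms. At 16 h Ntrk2 stood at 41.7, 37.9 and 42.8 TPM in erinacine S, against 43.4, 40.7 and 35.7 TPM in DMSO. At 48 h it stood at 128, 87.9 and 83.0 TPM in erinacine S, against 108, 98.0 and 109 TPM in DMSO. Every 48 h library lies above every 16 h library, and at 48 h the erinacine S libraries lie on both sides of the DMSO range.

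Ntrk2 rose with time in both arms. The 48 h level exceeded the 16 h level by 1.24 ± 0.14 on the log2 scale in erinacine S (adjusted p = 0.000105, limma), a TPM ratio of 2.44, and by 1.37 ± 0.14 in DMSO (adjusted p = 4.71e-05, limma), a TPM ratio of 2.63. That is 1 of the 6 members called in erinacine S, against 30.6% of all genes, and 1 of 6 in DMSO, against 32.7%. A large share of all genes thus differed between the times. Treatment began on the day of plating, so time in culture and time of treatment cannot be told apart. Called genes that were higher at 48 h made up 15.1% of all genes in erinacine S and 16.1% in DMSO, and called genes that were lower 15.5% in erinacine S and 16.6% in DMSO. Before adjustment 1 member in erinacine S and 2 in DMSO had a p under 0.05, against 42.2% and 44.2% of all genes. Separated libraries were seen in erinacine S for 2 of 6 members, Ntrk2 and Ntrk3, both higher at 48 h, against 44.9% of all genes (21.2% higher and 23.7% lower). In DMSO they were seen for 1 of 6, Ntrk2, higher at 48 h, against 50.5% (24.1% higher and 26.4% lower). Without erinacine S 48 h replicate 1 the rise in erinacine S was 1.05 (adjusted p = 4.42e-05, limma). The summed astrocyte markers also moved with time, at 179 to 229 TPM in erinacine S and 201 to 229 TPM in DMSO at 16 h against 136 to 644 TPM in erinacine S and 500 to 588 TPM in DMSO at 48 h. Ntrk2 is expressed by astrocytes as well as neurons, and the part of these markers in its rise was not tested. The library with the lowest astrocyte sum at 48 h, erinacine S replicate 1, had the highest Ntrk2 value, 128 TPM. The same library also stood apart in its summed inhibitory neuron markers, 1770 TPM.

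The erinacine S effect on Ntrk2 was 0.03 ± 0.14 at 16 h (adjusted p = 1, limma) and -0.10 ± 0.14 at 48 h (adjusted p = 0.87, limma). The 95% interval at 48 h, -0.40 to 0.20, does not include a change of the size seen with time. Without erinacine S 48 h replicate 1 the 48 h difference was -0.29 (adjusted p = 0.285, limma). As these are bulk samples, fewer cells of a type and less RNA per cell cannot be told apart for any gene here.

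Ntrk3 encodes TrkC and lies at chr7:78175959-78738012 on the minus strand. It overlaps 4 other gene models, of which the antisense model Gm9885 stood at 2.92 to 6.69 TPM, so its values carry the same doubt about strand as those of Bdnf. At 16 h it stood at 34.1, 33.8 and 32.3 TPM in erinacine S, against 35.4, 34.4 and 30.9 TPM in DMSO. At 48 h it stood at 36.3, 38.1 and 34.5 TPM in erinacine S, against 33.6, 31.8 and 34.3 TPM in DMSO. The 48 h groups are separated by a gap far smaller than the range within either, and the difference of 0.12 ± 0.07 (95% interval -0.03 to 0.28) has an adjusted p of 0.651 (limma). It was 0.12 without erinacine S 48 h replicate 1 (adjusted p = 0.736, limma). In erinacine S the 48 h libraries also lie above the 16 h libraries, by 0.12 ± 0.07 (adjusted p = 0.23, limma; 0.305 without that replicate).

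The balance of the 2 Trk genes differed between the times, as Ntrk2 rose and Ntrk3 did not pass the threshold. The share of Ntrk2 in their sum was 52.9% to 57.0% in erinacine S and 53.6% to 55.1% in DMSO at 16 h, and 69.7% to 77.9% in erinacine S and 75.5% to 76.2% in DMSO at 48 h.

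Ngfr encodes p75, the receptor that all neurotrophins and their precursors can bind, and lies at chr11:95568818-95587735 on the minus strand with a single annotated transcript. It was the least expressed member. At 16 h it stood at 0.605, 0.963 and 1.40 TPM in erinacine S, against 0.598, 0.731 and 1.25 TPM in DMSO, and at 48 h at 1.81, 0.910 and 0.774 TPM in erinacine S, against 1.32, 1.25 and 1.93 TPM in DMSO. The groups overlap at both times, and the spread within a group is as wide as any difference between groups. The erinacine S effect was 0.09 ± 0.22 at 16 h and -0.23 ± 0.22 at 48 h (adjusted p of 1 and 0.798, limma). Without erinacine S 48 h replicate 1, the highest of its group, the 48 h difference was -0.43 (adjusted p = 0.601, limma).

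Sort1 encodes sortilin, the co-receptor of p75 for proneurotrophins and a sorting receptor for BDNF, and lies at chr3:108284082-108361511 on the plus strand. It was the steadiest member. At 16 h it stood at 77.8, 77.1 and 73.2 TPM in erinacine S, against 78.8, 77.5 and 68.2 TPM in DMSO, and at 48 h at 78.8, 76.0 and 73.5 TPM in erinacine S, against 77.6, 75.2 and 78.4 TPM in DMSO. The 48 h effect of erinacine S was -0.02 ± 0.06, with a 95% interval of -0.16 to 0.12 (adjusted p = 0.959, limma), and it was -0.04 without erinacine S 48 h replicate 1 (adjusted p = 0.933, limma).

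The order of the levels was Sort1, Ntrk2, Ntrk3, Ntf3, Bdnf and Ngfr in both 16 h groups, and Ntrk2 stood above Sort1 in both 48 h groups with the rest in the same order. Means over the 12 libraries were 76.0 TPM for Sort1, 71.3 TPM for Ntrk2, 34.1 TPM for Ntrk3, 14.04 TPM for Ntf3, 3.01 TPM for Bdnf and 1.13 TPM for Ngfr. Among neighbours in this order, ranges overlap within a group for Bdnf (1.43 to 2.54 TPM) and Ngfr (0.774 to 1.81 TPM) in erinacine S at 48 h, and for no other neighbouring pair in any group.

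**Figure D2:**
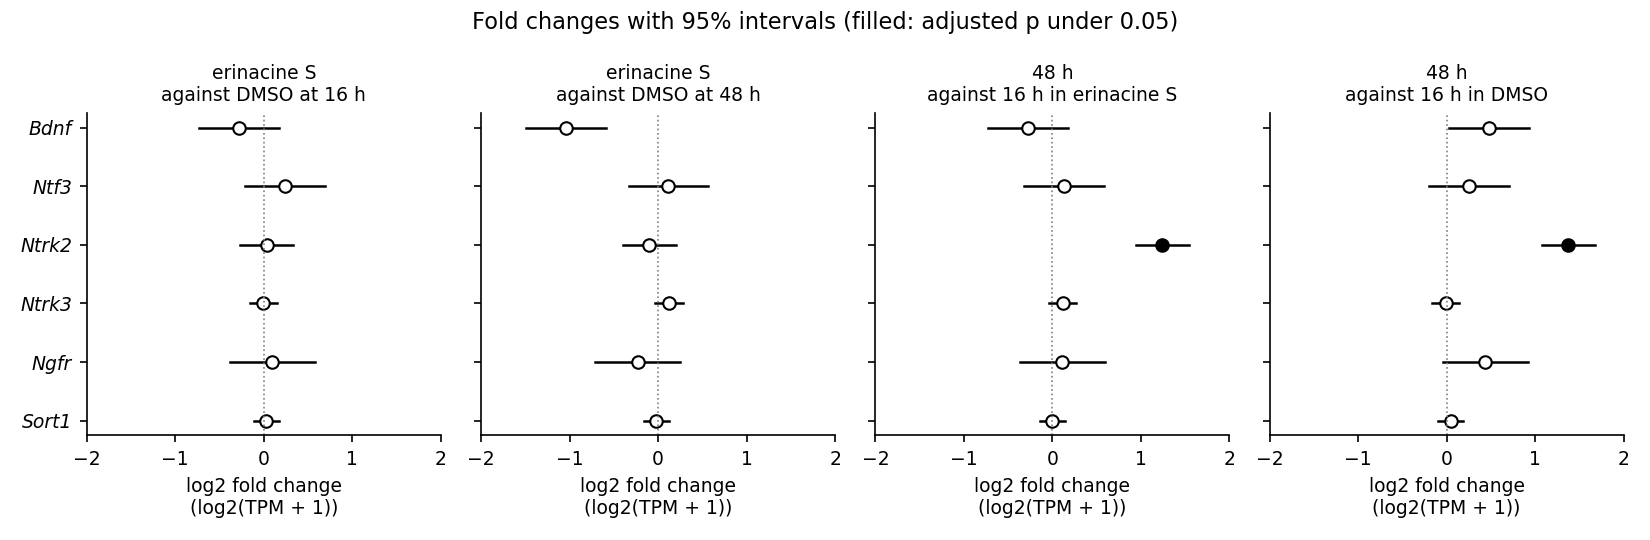
Log2 fold change with its 95% interval (horizontal axis, log2 of TPM + 1) for each of the 6 genes in the comparisons of erinacine S with DMSO and of 48 h with 16 h, with filled points for an adjusted p under 0.05. Bdnf at 48 h is -1.04 with an interval that ends at -0.59, and the Ntrk2 time differences are 1.24 in erinacine S and 1.37 in DMSO.

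**Figure D3:**
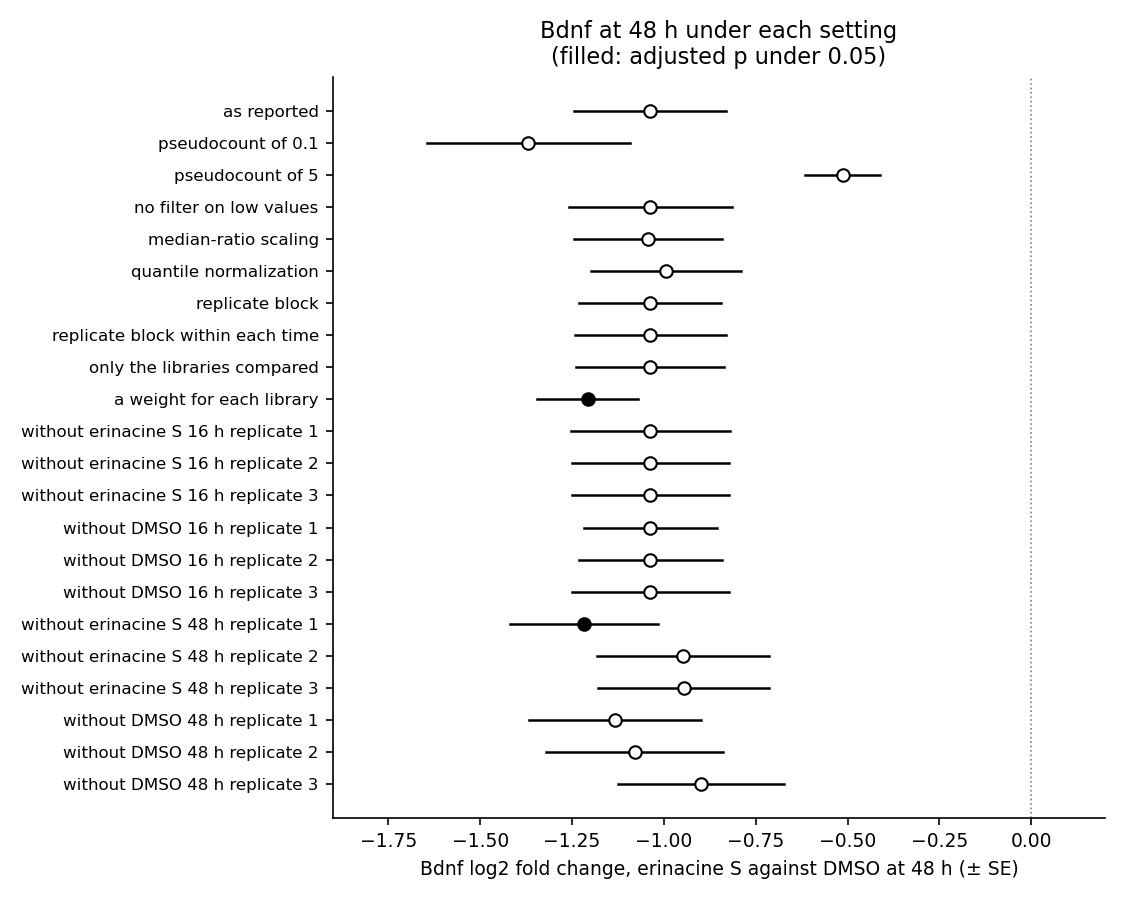
Log2 fold change of Bdnf, erinacine S against DMSO at 48 h, in the fit reported and under each alternative (points, bars ± SE; filled points have an adjusted p under 0.05). All values are negative, and the filled points are the fits with library weights and without erinacine S 48 h replicate 1.

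The genes whose profiles lie closest to those of the members were found by the root mean square difference of centred log2 values over the 12 libraries, among 12773 named genes. For Bdnf these were Rgs4, an inhibitor of G protein signalling, at 0.155, Adcyap1, the gene of the neuropeptide PACAP, at 0.177, and Cbln4, a synaptic organizer, at 0.178, where the spread of Bdnf about its own mean was 0.444. Adcyap1 averaged 2.13 ± 1.01 TPM in erinacine S and 5.71 ± 1.13 TPM in DMSO at 48 h (SD, n = 3 each). As Adcyap1 was picked for its closeness to Bdnf in these same libraries, this difference is no separate evidence. For Ntrk2 the closest were Paqr9 at 0.0820, Rims4, a presynaptic scaffold gene, at 0.0898 and Fstl4 at 0.0984, where Ntrk2 itself spread by 0.674. The closest to Ntf3 was Camk1d at 0.128, and to Ngfr Elmo1 at 0.114. Ntrk3 and Sort1 hardly vary, so their closest genes, Dnajc13 at 0.0361 and Xpo6 at 0.0334, are other genes that hardly vary.

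Around the members, 9 lists of pathway genes were read for counts and medians. In the list of other neurotrophins and sortilin-family receptors, 0 of the 4 tested genes passed for erinacine S against DMSO at either time, where the median over all genes was 0.01 at both. Its largest 48 h difference was that of Sorcs2, a sortilin relative that pairs with p75, at 9.81 ± 1.32 TPM in erinacine S and 17.6 ± 2.21 TPM in DMSO (SD, n = 3 each). The groups of Sorcs2 do not overlap, at -0.78 ± 0.14 on the log2 scale (adjusted p = 0.0564, limma), and without erinacine S 48 h replicate 1 it passed, at -0.87 (adjusted p = 0.0173, limma). Sorcs2 rose with time by 1.62 in DMSO and 0.85 in erinacine S, and Sorl1 by 1.10 in DMSO and 0.90 in erinacine S. With Sorcs3, 3 of the 4 tested genes rose with time in each arm, against 15.1% of all genes in erinacine S and 16.1% in DMSO. Sorcs3 rose by 0.46 in erinacine S (adjusted p = 0.0487, limma), and without erinacine S 48 h replicate 1 it was at 0.31 (adjusted p = 0.161, limma), which leaves 2 of 4 there.

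Of the 8 tested genes of proneurotrophin processing, 0 passed for erinacine S at 48 h, and the lowest p was that of Plat, tissue plasminogen activator, at -0.50 ± 0.12 (adjusted p = 0.175, limma), or -0.36 without erinacine S 48 h replicate 1 (adjusted p = 0.13, limma). Plat averaged 12.03 ± 2.18 TPM in erinacine S and 17.3 ± 0.517 TPM in DMSO (SD, n = 3 each), with separated libraries. The convertase genes Pcsk2, Pcsk5 and Pcsk6 rose with time in DMSO, by 0.79, 0.75 and 1.34, and in erinacine S, by 0.90, 0.48 and 1.16. They are 3 of the 8 tested genes in each arm, where 16.1% of all genes rose in DMSO and 15.1% in erinacine S. Plat was called lower with time in erinacine S, at -0.50. Without erinacine S 48 h replicate 1 the rise of Pcsk5 in erinacine S was 0.37 and missed the threshold (adjusted p = 0.135, limma). For erinacine S at 48 h, 0 genes also passed among 16 co-receptors and adaptors of p75 (median 0.09), 26 Trk adaptors (median -0.04) and 34 downstream kinases (median -0.04). With time, 10 of these 34 kinases rose and 2 fell in erinacine S, where 15.1% of all genes rose and 15.5% fell. In DMSO 14 rose and 2 fell, where 16.1% of all genes rose and 16.6% fell. Camk2a rose by 1.16 in erinacine S and 1.33 in DMSO, and Prkcb by 1.40 in erinacine S and 1.52 in DMSO. In the GDNF family 0 of 5 and among other neurotrophic factors 0 of 14 passed for erinacine S at 48 h. The lowest p of the latter list was that of Igf1, at -0.82 ± 0.17 (adjusted p = 0.112, limma). Without erinacine S 48 h replicate 1 Igf1 passed, at -0.97 (adjusted p = 0.0178, limma). Its level was low, at 1.43 ± 0.486 TPM in erinacine S and 3.27 ± 0.720 TPM in DMSO at 48 h (SD, n = 3 each).

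The lists that contained called genes at 48 h were the transcription factors known to act on Bdnf and the neuronal genes known to respond to BDNF. Of 20 tested factors, 4 fell in erinacine S and 0 rose: Fos by 2.40, Npas4 by 1.61, Jun by 1.31 and Junb by 1.24 on the log2 scale (adjusted p from 0.000574 to 0.00215, limma), with a list median of -0.02. All 4 are immediate early genes, induced by neuronal activity. Of 26 tested BDNF-responsive genes, 11 fell and 0 rose, with a median of -0.59, and of the 4 called factors Fos, Npas4 and Junb also stand in this list. Nr4a1, an activity-induced nuclear receptor, fell by 1.89, to 10.4 ± 2.61 TPM in erinacine S, against 40.6 ± 2.59 TPM in DMSO (SD, n = 3 each). Crh, the gene of corticotropin-releasing hormone, fell by 2.06, to 0.177 ± 0.201 TPM in erinacine S, against 3.90 ± 0.865 TPM in DMSO (SD, n = 3 each). Without erinacine S 48 h replicate 1, 13 of the 26 fell, with a median of -0.85, and Nr4a1 was at -2.07 and Crh at -2.19. In the fit with all 12 libraries 0.115% of all genes fell, and the share without that replicate is not reported here. At 16 h, 0 of the 26 passed, with a median of -0.22 and 22 of 26 values below 0. These genes respond to many stimuli besides BDNF, and the lists were drawn up with results of these data known.

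Markers of several other cell types were lower beside these differences at 48 h, but not those of every list. The Cajal-Retzius sum was 47.6 to 80.9 TPM in erinacine S and 54.4 to 74.4 TPM in DMSO. Of its markers 4 of 6 were higher on average, and 2 of 6 had separated libraries, both higher. Of the Schwann and neural crest markers 3 of 5 were higher on average, and 1 of 5 was separated, lower. The summed microglial markers were 1.63, 11.1 and 13.5 TPM in erinacine S replicates 1, 2 and 3 and 23.4 to 32.5 TPM in DMSO, with 10 of 10 markers lower on average. The oligodendrocyte lineage sum was 66.5, 174 and 187 TPM in erinacine S and 201 to 233 TPM in DMSO. The subplate sum was 25.6, 27.3 and 22.1 TPM in erinacine S and 32.2 to 37.3 TPM in DMSO. Of its markers 5 of 7 were lower and 2 of 7 higher on average, and 2 of 7 had separated libraries, both lower. The radial glia and progenitor sum was 173, 303 and 304 TPM in erinacine S and 319 to 347 TPM in DMSO. The meningeal fibroblast and pericyte sum was 0.833 to 2.48 TPM in erinacine S and 3.47 to 3.68 TPM in DMSO, with 8 of 8 markers lower on average. The dividing cell sum was 133, 240.4 and 245.2 TPM in erinacine S and 245.5 to 258.6 TPM in DMSO. There 7 of 7 markers were lower on average and 1 of 7 had separated libraries. Replicate 1 alone lay far below DMSO in this sum. No marker was at 0 in all 3 erinacine S libraries at 48 h. The part of these cells in the Bdnf difference was not tested.

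**Figure D4:**
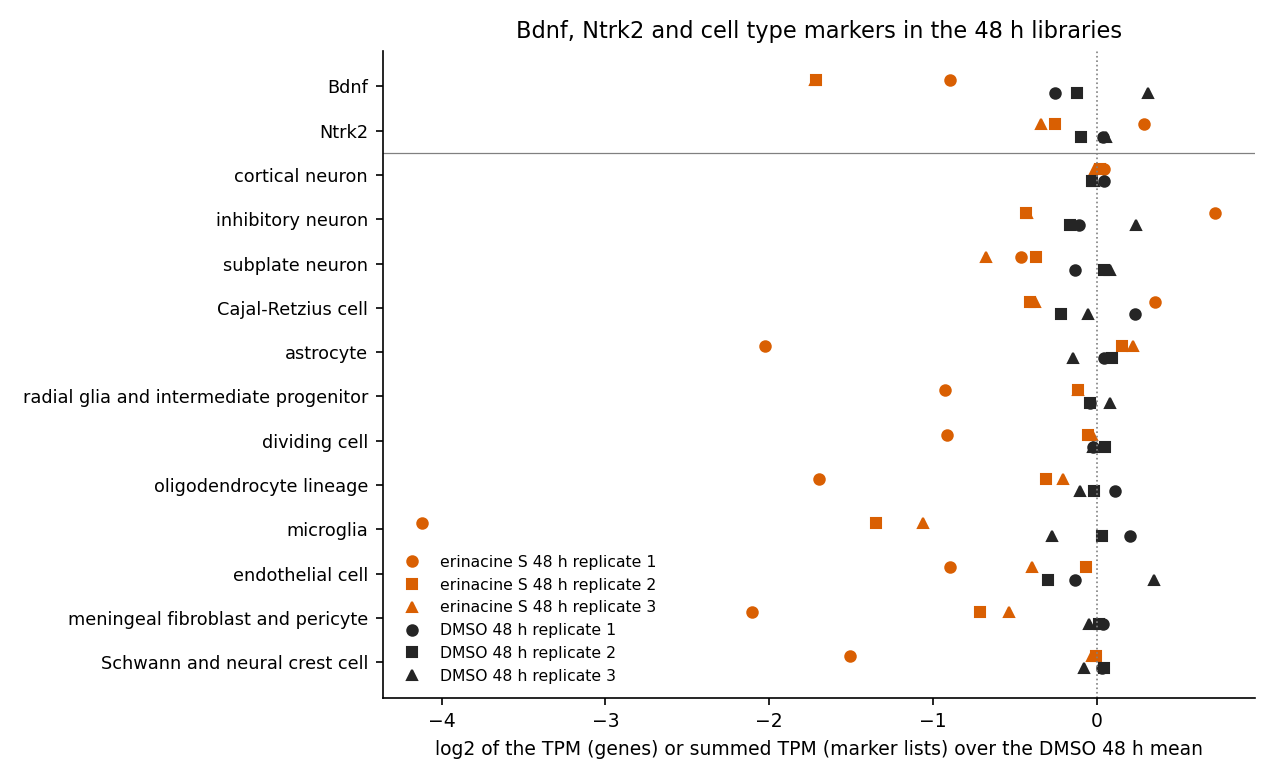
Bdnf, Ntrk2 and the summed markers of 12 cell type lists in each 48 h library, as log2 of the TPM over the DMSO 48 h mean (horizontal axis), with erinacine S in orange and DMSO in black. The microglial sums are 1.63 to 13.5 TPM in erinacine S and 23.4 to 32.5 TPM in DMSO, and erinacine S replicate 1 has the lowest astrocyte sum, 136 TPM.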

How the data were processed

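The authors deposited gene-level TPM for 51912 genes in 12 libraries, for which the submitters' processing notes name StringTie 2.1.3, HISAT2, SAMtools, Trimmomatic 0.36, bcl2fastq 2.20 and FastQC, with the build GRCm38.p5. A strand-specific kit was used, per the labels' protocols. For the annotation release and the strand setting, the answer is not given in the sources used. TPM keep no read depth, so precision is the spread between libraries. The deposited 0.0001 was read as 0. Groups came from the sample titles, and 0 columns lacked a sample.

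In R 4.3.3, limma 3.58.1 was fitted to log2(TPM + 1) with 1 mean per group over 12 libraries (eBayes with trend, two-sided), for 15623 genes with a mean of at least 1 TPM. The code was tested on simulated data. Deviations from the group means, compared between libraries that share a number, correlated at 16 h at 0.48, 0.185 and 0.51. The numbers may thus pair the 16 h libraries. This is least clear for replicate 2, as erinacine S replicate 2 and DMSO replicate 3 correlated at 0.109. At 48 h the values for libraries that share a number were -0.0219, 0.107 and -0.192, so no pairing by number was seen there. The members and lists were chosen with earlier results of these data known. Genes named besides the members were the 3 closest in profile to each, and in each list those called (4 with the smallest p where more were called, up to 2 where none was). Some genes of these lists are not reported here. Markers were read as sums per list. Alternatives were other pseudocounts, filters, scalings, blocks, library weights, only the libraries compared, and leaving out each library.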

Additional observations from a re-analysis of the deposited data

How the results depend on the processing

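Of 632 values of the members under alternatives, 594 kept their direction and side of the threshold, 8 passed it newly, 0 lost it and 30 took the other sign. Bdnf at 48 h was -1.37 (adjusted p = 0.113) with a pseudocount of 0.1, -0.51 (0.0908) with 5, -1.04 (0.0827) with median-ratio scaling and -0.99 (0.11) with quantile normalization. The replicate block gave an adjusted p of 0.123, the block within each time 0.169, only the libraries compared 0.229 and no filter 0.241, and the block changed no other call. A mean of at least 5 TPM leaves Bdnf and Ngfr out, so neither has a value there. With library weights 3 members passed at 48 h, Bdnf (-1.21), Ntrk2 (-0.25) and Ntrk3 (0.17), as did 1599 of all 15623 genes. Over time 3 members passed in erinacine S (Ntrk2, Bdnf and Ntrk3) and 2 in DMSO (Ntrk2 and Ngfr). In the fit reported, 0.134% of all genes passed at 48 h, 30.6% in erinacine S over time and 32.7% in DMSO over time. The shares over time with weights, and those with 1 library left out, are not reported here. Leaving out 1 library gave 0 to 1 members at 48 h and 1 to 2 in DMSO over time. The cause was not tested.

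Values with the other sign were Ntrk3 in DMSO over time with median-ratio scaling (0.000294) and Sort1 in erinacine S over time with quantile normalization (-0.0309). Library weights gave Ntf3 -0.123, Ntrk2 -0.0815 and Sort1 -0.0072 at 16 h, Ntf3 -0.0542 at 48 h and 0.0683 for the difference between times, and Ngfr -0.088 and Sort1 -0.0121 in erinacine S over time. Leaving out 1 library gave these ranges. At 16 h they were -0.0443 to 0.093 for Ntrk2, -0.062 to 0.0313 for Ntrk3, -0.052 to 0.239 for Ngfr and -0.0395 to 0.0634 for Sort1. At 48 h they were -0.292 to 0.0173 for Ntrk2 and -0.0434 to 0.00622 for Sort1. For the difference between times they were -0.353 to 0.0678 for Ntf3 and -0.0817 to 0.0212 for Sort1. Over time they were -0.0927 to 0.256 for Ngfr and -0.0261 to 0.025 for Sort1 in erinacine S, and -0.0681 to 0.0251 for Ntrk3 and -0.0208 to 0.0821 for Sort1 in DMSO. TPM without depth limit what can be said of Ngfr.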
